A study of Mus musculus with 6 samples.

Results

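Mitochondrial biogenesis regulators and the machinery that keeps and reads mitochondrial DNA (mtDNA) were followed as 10 genes fixed by symbol, Tfam, Nrf1, Gabpa, Ppargc1a, Ppargc1b, Polg, Polrmt, Tfb1m, Tfb2m and Ssbp1, of 21878 rows in each library. All 10 were listed in all 6 libraries. HSCs had been sorted from the BM of WT mice as Lineage-, Sca-1+, c-Kit+ cells without CD34 and Flt3 (Flk2). The 3 control libraries came from mice given vehicle, and the 3 IGF1 libraries from mice given 1 subcutaneous dose of recombinant mouse IGF1 at 200 µg/kg, both at day 1, with dose and day taken from the study's text. The mice are C57BL/6 per the study's methods, which give no age for these libraries, and no allele or other agent separates the groups. One label, on the extraction, speaks of irradiated mice in place of IGF1, and the groups were taken from the treatment label. The sources used here do not say whether libraries of a group came from separate mice, so the spread between them may be technical.

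Nuclear genes encode nearly all of the proteins that copy, package and transcribe mtDNA. Nrf1 (nuclear respiratory factor) and Gabpa, the DNA-binding subunit of GABP, are transcription factors that act on many of these genes, and the PGC-1 coactivators Ppargc1a and Ppargc1b work through such factors. Tfam packages mtDNA into nucleoids and starts transcription together with the RNA polymerase Polrmt and the initiation factor Tfb2m. Tfb1m, a paralog of Tfb2m, methylates the RNA of the small mitochondrial ribosomal subunit. Polg is the catalytic subunit of the mtDNA polymerase, and Ssbp1 coats single-stranded mtDNA during replication. HSCs are known for keeping mitochondrial respiration low at rest and raising it when they enter the cell cycle.

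Control replicate 2 stood apart from the other controls, and the log2 differences of the genes tested are therefore given with and without it. Between control replicates 1 and 3, 2 genes differed by more than 2-fold in FPKM + 1 (reads per gene scaled by gene length and library size, the deposited unit). For control replicate 2 the numbers were 2589 and 2599 against the other controls and 126 to 135 against the 3 IGF1 libraries. The reads on listed genes numbered 15879605 and 15973834 in control replicates 1 and 3, 11429198 in control replicate 2 and 11206800 to 12756225 with IGF1. The summed FPKM of 8 B cell markers was 122 and 121 in control replicates 1 and 3, 498 in control replicate 2 and 474 to 493 in the IGF1 libraries. The summed FPKM of the 7 T and NK cell markers listed moved the same way, with 372 and 360, then 780, then 770 to 790, but nearly all of that sum was Nkg7 (356 to 787 FPKM), 3 of the 7 stayed below 1 FPKM in every library, and Cd3e was at 0 to 0.206 FPKM. The part of depth or of these markers in the results below was not tested. Of 10 HSC markers, 7 reached 1 FPKM in every library. The summed FPKM of all 10 was 530 to 744 in controls and 490 to 506 with IGF1, but they did not move together. Ly6a had 219, 615 and 231 FPKM in controls and 374 to 387 with IGF1. Kit had 105, 31.4 and 104 FPKM, then 24.2 to 24.6. Slamf1 and Mecom were at 0.736 to 2.41 and 0.672 to 4.1 FPKM over all libraries. Fgd5 was at 1.32 to 1.68 FPKM in controls and 0.277 to 0.459 with IGF1. The transcripts of Cd34 and Flt3, the surface proteins the sort selected against, were present. Cd34 was at 640, 265 and 634 FPKM in controls and 230 to 238 with IGF1. Flt3 was at 117, 172 and 117 FPKM, then 183 to 188. These single markers were looked at after the data had been seen. Summed FPKM in controls and with IGF1 was 2690 to 2820 and 2780 to 2790 for 10 neutrophil and monocyte markers, 36.2 to 103 and 48.6 to 55.4 for 8 erythroid markers, 54.7 to 77.6 and 96.0 to 106 for 7 megakaryocyte and platelet markers, and 18.0 to 35.9 and 21.7 to 22.9 for 6 stromal and endothelial markers, of which 5 stayed below 1 FPKM. These are bulk libraries, in which fewer cells of a type and less RNA per cell cannot be told apart.

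The 10 genes covered a wide range of levels, compared here as FPKM, which is per length (means ± SD, n = 3 per group). Ssbp1 was the most abundant, at 63.3 ± 13.1 FPKM in controls and 70.0 ± 3.03 with IGF1, followed by Tfam at 22.9 ± 2.03 and 18.6 ± 0.701. These 2 held the first and second place in all 6 libraries. The middle of the order was not the same in every library. Tfb2m was the third in control replicates 1 and 3, at 17.3 and 16.8 FPKM, whereas Tfb1m was the third in control replicate 2 and in every IGF1 library, at 11.3 to 13.5 FPKM. With IGF1, Polrmt (6.88 ± 0.656) and Tfb2m (6.46 ± 0.328) overlapped, as did neighbours in the order of the controls, Polrmt (13.5 ± 4.67) and Tfb2m (13.5 ± 6.13), Tfb1m (10.8 ± 2.35) and Gabpa (9.65 ± 4.21), and Gabpa and Nrf1 (8.21 ± 3.04). These SDs are wide because of control replicate 2, and Polrmt ranked above Nrf1 in every library. Polg, Ppargc1b and Ppargc1a held the last 3 places in all libraries, with Polg at 2.50 to 6.44 FPKM, Ppargc1b at 0.676 to 1.13 and Ppargc1a at 0.0219 to 0.204. Ppargc1a and Ppargc1b were thus far below their partner factors Nrf1 and Gabpa in each library. Pprc1, a related coactivator among the pathway genes below, was not. It had 13.9, 5.13 and 13.7 FPKM in controls and 3.87, 3.15 and 3.92 with IGF1 (-1.25, SE 0.37, limma adjusted p = 0.0546).

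**Figure D1:**
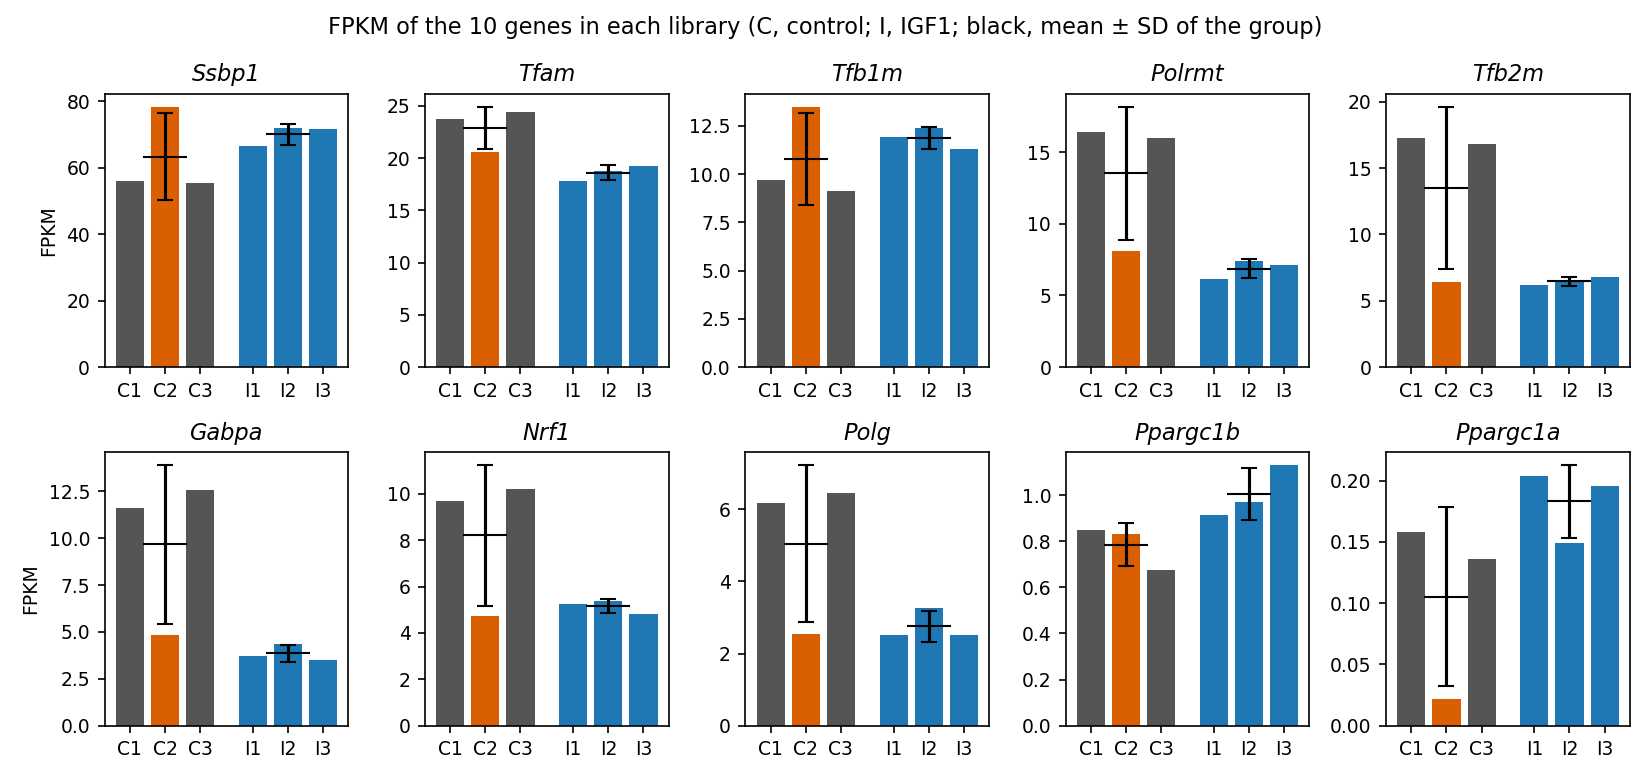
FPKM (linear axes from 0) of the 10 genes in each library, ordered by mean level, with control replicate 2 in orange and the group mean ± SD in black (n = 3). Gabpa, Tfb2m, Polrmt, Nrf1 and Polg are high in control replicates 1 and 3 alone, Ssbp1 and Tfb1m are highest in control replicate 2, and Ppargc1a and Ppargc1b stay near or under 1 FPKM.

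Promoter sequence is shown for the genes that start mitochondrial transcription (Tfam, Polrmt, Tfb2m), for Tfb1m as the paralog of Tfb2m, and for Polg, so that the motif matches described next can be seen in place. Each stretch runs from 150 bases before to 30 bases after the RefSeq start on the gene's strand (GRCm38.p6), at chr10:71238015-71238194 (-) for Tfam, chr10:79746552-79746731 (-) for Polrmt, chr1:179546247-179546426 (-) for Tfb2m, chr17:3557726-3557905 (-) for Tfb1m and chr7:79466244-79466423 (-) for Polg. Capitals mark matches to the motifs searched.
Tfam: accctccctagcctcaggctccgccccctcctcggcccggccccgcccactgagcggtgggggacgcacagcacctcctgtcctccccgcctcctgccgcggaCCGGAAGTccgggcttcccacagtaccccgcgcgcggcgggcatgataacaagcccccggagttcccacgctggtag
Polrmt: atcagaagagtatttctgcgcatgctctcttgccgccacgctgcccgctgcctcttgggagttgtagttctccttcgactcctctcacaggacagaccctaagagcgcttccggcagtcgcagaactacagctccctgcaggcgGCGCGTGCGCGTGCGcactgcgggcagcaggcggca
Tfb2m: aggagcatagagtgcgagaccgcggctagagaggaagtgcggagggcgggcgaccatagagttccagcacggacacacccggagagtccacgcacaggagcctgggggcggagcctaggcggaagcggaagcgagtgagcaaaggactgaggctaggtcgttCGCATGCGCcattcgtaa
Tfb1m: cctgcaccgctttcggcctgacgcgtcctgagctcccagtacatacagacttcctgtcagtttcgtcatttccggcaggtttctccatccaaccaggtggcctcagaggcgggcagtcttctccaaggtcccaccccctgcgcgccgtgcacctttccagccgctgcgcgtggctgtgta
Polg: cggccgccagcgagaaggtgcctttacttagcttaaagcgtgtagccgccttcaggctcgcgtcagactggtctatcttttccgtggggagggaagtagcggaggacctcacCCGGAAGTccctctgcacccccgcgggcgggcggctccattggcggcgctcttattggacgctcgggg

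Windows of 300 bases, 250 before and 50 after the start, were found for 9 of the 10 genes (Nrf1 has 2 windows, and Ppargc1b has none in the table), and 6 motifs were looked for on both strands. Bases are counted from 1 at the start and from -1 before it. The NRF1 core CGCANGCGC matched at bases 13 to 21 after the start in Tfb2m, and as 2 overlapping matches at bases -6 to 3 and 1 to 9 in Polrmt. It is found in 6.31% of 32851 mouse promoter windows of the same length. The ETS site bound by GABP, CCGGAAGT, matched at bases -47 to -40 in Tfam and -38 to -31 in Polg, against 3.89% of all windows. The YY1 site AAGATGGCG matched at bases -68 to -60 in Gabpa (1.4% of windows). The ERR half-site TCAAGGTCA (0.423%), the CRE TGACGTCA (1.79%) and the E-box CACGTG (7.15%) had no match in these windows, nor did any of the 6 motifs in those of Ssbp1, Tfb1m, Nrf1 and Ppargc1a. A match here is a run of letters and not a measured binding site.

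Over all 6 libraries no gene among the 8 tested passed adjusted p 0.05 between IGF1 and control (limma on log2(FPKM + 1), Benjamini-Hochberg over 10447 genes), with adjusted p from 0.0627 for Gabpa to 0.475 for Tfb1m. Of all genes tested, 20.4% passed. With a fold change over 2 also required, none of the 8 and 6.61% of all genes were called, and 3 of the 8 had an unadjusted p under 0.05, against 53.4%. Of the 8 log2 differences, 6 were below 0, and the median of the 8 was -0.57, while the median of all genes tested was -0.18. In Tfam, Gabpa and Polrmt every IGF1 library lay below every control, as in 37.4% of all genes.

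Without control replicate 2, which was left out after the data had been seen, all 8 genes passed adjusted p 0.05 in the same limma test. Tfam, Nrf1, Gabpa, Polg, Polrmt and Tfb2m were lower with IGF1, a direction in which 53.6% of all genes passed, and Tfb1m and Ssbp1 were higher, as were 34.9%. At a fold change over 2, 3 were called lower, Gabpa, Tfb2m and Polrmt, against 20.6% of all genes. The median log2 difference of the 8 genes was then -0.90, and that of all genes -0.24. With 88.5% of all genes past the threshold without this library, passing it does not set the 8 genes apart. When any of the other 5 libraries was left out instead, 0 of the 8 and 0 of all genes passed in limma, and 2982 to 3205 genes had an unadjusted p under 0.05.

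**Figure D2:**
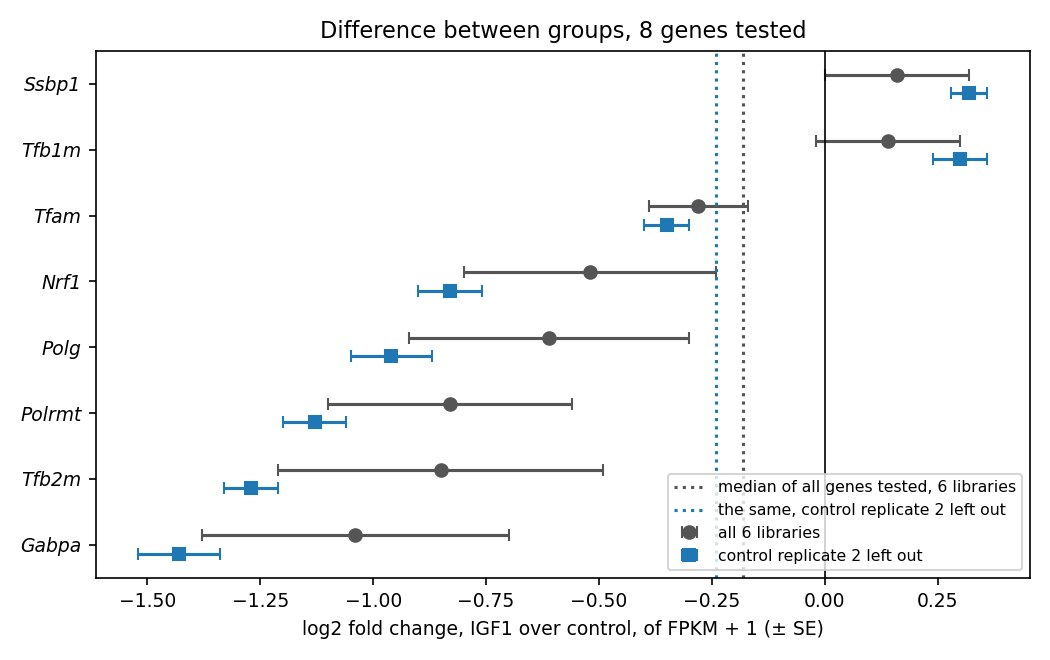
Log2 fold change of FPKM + 1 (IGF1 over control, ± SE) of the 8 genes tested, with all 6 libraries (grey circles) and without control replicate 2 (blue squares), beside the medians of all genes tested (dotted lines, -0.18 and -0.24). Each of the 8 differences lies further from 0, with a smaller SE, without that library.

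Among the transcription factors, Gabpa had the largest log2 difference of the 8 genes tested, in the fit to all 6 libraries above. In order of replicate, its FPKM was 11.6, 4.82 and 12.6 in controls and 3.70, 4.38 and 3.48 with IGF1. All IGF1 libraries lay below all controls, although control replicate 2 was only slightly above them. The log2 difference was -1.04 (SE 0.34, limma adjusted p = 0.0627), and -1.43 (SE 0.09) without control replicate 2. The IGF1 mean was then 0.319 of the mean of the other controls. These values rest on 233 to 1052 reads per library (Gabpa, chromosome 16, 84834891 to 84863783, GRCm38). Nrf1 had 9.71, 4.72 and 10.2 FPKM in controls and 5.26, 5.38 and 4.81 with IGF1. Here control replicate 2 was the lowest of the 6 libraries, so the groups overlapped. The log2 difference of Nrf1 was -0.52 (SE 0.28, limma adjusted p = 0.161), and -0.83 (SE 0.07) without that library, with 614 to 1856 reads per library (chromosome 6, 30047985 to 30153458). Its sign depended on the processing, since it was 0.02 once trends with gene length and GC content were removed from each library. Gabpa stayed below 0 in the same setting, at -0.52, where Polrmt, at -0.96, had a larger difference.

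The ratio of Nrf1 to Gabpa within a library, which does not depend on scaling between libraries, was 0.839, 0.979 and 0.813 in controls and 1.42, 1.23 and 1.38 with IGF1. By FPKM, Nrf1 thus stood below Gabpa in all 3 controls and above it in all 3 IGF1 libraries. Control replicate 2 was on the control side. However, 1 read in control replicate 1 was worth 0.00554 FPKM for Nrf1 and 0.012 for Gabpa. Which of the genes is the higher therefore depends on the lengths used, and by reads Nrf1 was the higher in every library. The change of the ratio between libraries does not depend on these lengths. Of the 7 ratios plotted, Nrf1/Gabpa was the one in which control replicate 2 was nearer to the other controls, leaving aside Ssbp1/Tfb1m, which hardly varied.

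The coactivators were the lowest of the 10 genes, and Ppargc1a rested on few reads. It had 0.158, 0.0219 and 0.136 FPKM in controls and 0.204, 0.149 and 0.196 with IGF1, from 30, 3 and 26 and then 30, 20 and 30 reads. The 3 reads of control replicate 2 allow 0.00452 to 0.0641 FPKM (exact 95% Poisson interval, counting error only), under the interval of control replicate 1, which is 0.107 to 0.225 FPKM. Ppargc1b had 0.849, 0.831 and 0.676 FPKM in controls and 0.914, 0.970 and 1.13 with IGF1, from 110 to 167 reads. All IGF1 libraries lay above all controls for Ppargc1b, and control replicate 2 lay between the other controls. Neither reached 1 FPKM in 3 libraries, so they are outside the test across genes. A two-sided exact permutation test of 3 against 3 libraries gave p = 0.1 for Ppargc1b, the smallest this design allows, and p = 0.2 for Ppargc1a, both 0.2 after adjustment over the 2 tests. With no filter on low values the log2 differences of FPKM + 1 were 0.17 (SE 0.08, limma adjusted p = 0.157) for Ppargc1b and 0.10 (SE 0.05, limma adjusted p = 0.199) for Ppargc1a. At such levels the pseudocount of 1 holds these values near 0. On recovered reads (limma voom, no filter, added after the data had been seen) the log2 difference was 0.36 (SE 0.18, adjusted p = 0.164) for Ppargc1b. For Ppargc1a it was 1.08 (SE 0.67, adjusted p = 0.236). The IGF1 mean FPKM of Ppargc1a was 1.74 of the control mean, but 1.25 of the mean of control replicates 1 and 3. For Ppargc1b the same ratios were 1.28 and 1.32. For Ppargc1b the number of libraries keeps the exact test from passing. For Ppargc1a no test passed, with few reads, overlapping groups and control replicate 2 under the other controls. The part of depth in this was not tested.

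Of the genes that transcribe mtDNA, Polrmt and Tfb2m were high in control replicates 1 and 3 and low in the other 4 libraries. Polrmt had 16.4, 8.13 and 16.0 FPKM in controls and 6.13, 7.37 and 7.13 with IGF1, and all IGF1 libraries lay below all controls. Its log2 difference was -0.83 (SE 0.27, limma adjusted p = 0.0644), and -1.13 (SE 0.07) without control replicate 2, from 286 to 988 reads (chromosome 10, 79736125 to 79746604). Polrmt was also the one gene of the 8 that passed over all 6 libraries in any setting without weights, at -0.96 (limma adjusted p = 0.0493) with the length and GC trends removed, with adjusted p from 4.23e-09 to 0.195 over its 20 alternatives. Tfb2m had 17.3, 6.44 and 16.8 FPKM in controls and 6.17, 6.40 and 6.82 with IGF1. Control replicate 2 lay inside the IGF1 range, and the groups overlapped. The log2 difference of Tfb2m was -0.85 (SE 0.36, limma adjusted p = 0.103), and -1.27 (SE 0.06) without control replicate 2, from 197 to 753 reads (chromosome 1, 179528052 to 179546305). Unlike Polrmt, Tfb2m came closer to 0 with the length and GC trends removed, at -0.26, and -0.53 with control replicate 2 also left out.

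Tfam, which packages mtDNA as well as starting its transcription, moved less. It had 23.7, 20.6 and 24.4 FPKM in controls and 17.8, 18.8 and 19.2 with IGF1, from 855 to 1579 reads (chromosome 10, 71225468 to 71238328). All IGF1 libraries lay below all controls, with control replicate 2 between the groups. The log2 difference of Tfam was -0.28 (SE 0.11, limma adjusted p = 0.0838), and -0.35 (SE 0.05) without control replicate 2, where the IGF1 mean was 0.774 of that of the other controls. Its direction depended on the scaling. It was -0.04 with libraries scaled to a common 75th percentile, 0.03 after quantile normalization, and 0.26 with the length and GC trends removed, while the median of all genes went from -0.18 to 0.04, -0.02 and -0.04 in the same order.

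The difference of Tfb1m had the opposite sign to that of its paralog Tfb2m, and neither passed over the 6 libraries. Tfb1m had 9.69, 13.5 and 9.14 FPKM in controls and 11.9, 12.4 and 11.3 with IGF1. Control replicate 2 was the highest of all, so that the groups overlapped. The log2 difference of Tfb1m was 0.14 (SE 0.16, limma adjusted p = 0.475), and 0.30 (SE 0.06) without control replicate 2, from 228 to 253 reads (chromosome 17, 3519250 to 3557796). It was larger, at 0.38 with scaling to the 75th percentile, 0.46 after quantile normalization and 0.72 with the length and GC trends removed. Leaving out control replicate 1 or 3 made it smaller, at 0.08 and 0.05. The ratio of Tfb1m to Tfb2m was 0.561 and 0.544 in control replicates 1 and 3, 2.09 in control replicate 2, and 1.93, 1.93 and 1.66 in the IGF1 libraries. The groups overlapped in this ratio (two-sided exact permutation test of the log2 ratio, p = 0.4). By FPKM, Tfb2m was the higher paralog in 2 libraries and Tfb1m in the other 4. The longest reference transcripts of Tfb1m and Tfb2m have 2419 and 2449 bases and a GC content of 42.6% and 42.5%. However, 1 read in control replicate 1 was worth 0.0383 FPKM for Tfb1m and 0.0230 for Tfb2m, so the deposited values rest on a shorter length for Tfb1m, and which paralog is the higher depends on that length. The change of the ratio between libraries does not. Tfb1m had 253 and 240 reads in control replicates 1 and 3 and 228 to 253 elsewhere, whereas Tfb2m had 753 and 736, and 197 to 239.

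The differences of the replication genes Polg and Ssbp1 also had opposite signs, and neither passed over the 6 libraries. Polg had 6.16, 2.53 and 6.44 FPKM in controls and 2.52, 3.25 and 2.50 with IGF1, with control replicate 2 inside the IGF1 range. Its log2 difference was -0.61 (SE 0.31, limma adjusted p = 0.146), and -0.96 (SE 0.09) without control replicate 2, from 152 to 541 reads (chromosome 7, 79446231 to 79467911). Ssbp1, the most abundant of the 10, had 56.1, 78.4 and 55.4 FPKM in controls and 66.5, 71.9 and 71.7 with IGF1, again with control replicate 2 the highest. The log2 difference of Ssbp1 was 0.16 (SE 0.16, limma adjusted p = 0.412), and 0.32 (SE 0.04) without control replicate 2, from 2205 to 2504 reads (chromosome 6, 40471414 to 40481823). As for Tfb1m, it was larger under other settings, at 0.41 with scaling to the 75th percentile and 0.33 after quantile normalization. With the length and GC trends removed it was 0.77, and 1.12 with control replicate 2 also left out. Leaving out control replicate 1 or 3 made it smaller, at 0.09 and 0.08. Within a library, Ssbp1 exceeded Polg by a ratio of 9.11 and 8.61 in control replicates 1 and 3, 31.0 in control replicate 2, and 22.1 to 28.7 with IGF1. The groups overlapped here too (two-sided exact permutation test of the log2 ratio, p = 0.4).

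**Figure D3:**
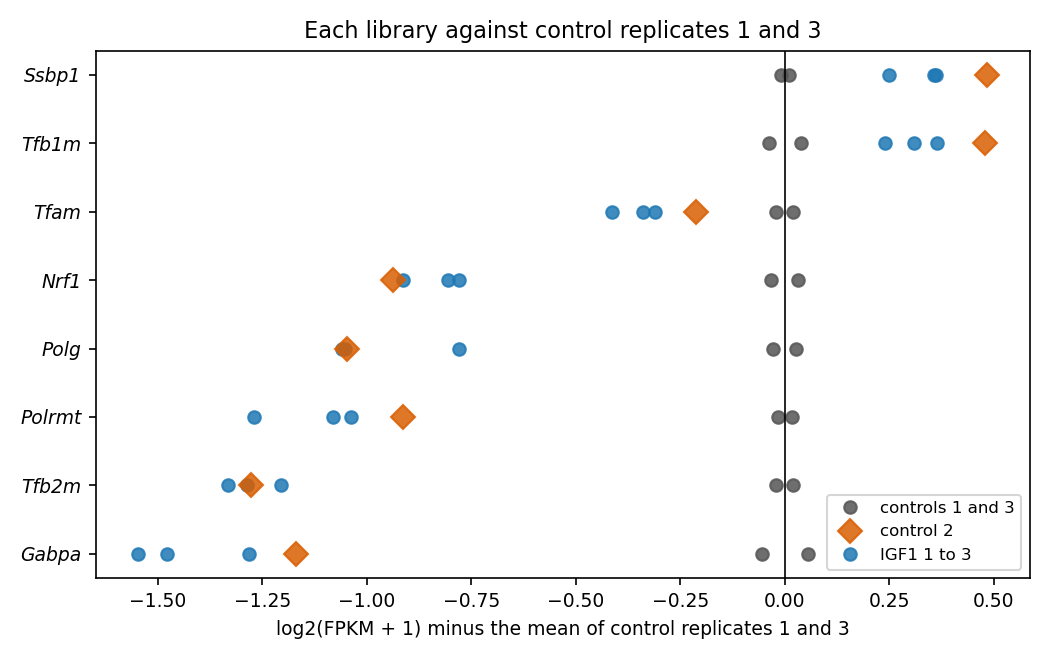
Log2(FPKM + 1) of each library minus the mean of control replicates 1 and 3, for the 8 genes tested, with grey circles for those controls, orange diamonds for control replicate 2 and blue circles for IGF1. Control replicate 2 lies nearer to the IGF1 libraries than to 0 in all 8 genes, past them in Nrf1, Tfb1m and Ssbp1 and within them in Polg and Tfb2m.

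In all 8 genes control replicate 2 was nearer to the IGF1 mean than to the mean of the other controls, as in 77.3% of all genes tested. It lay past the IGF1 libraries in 3 of the 8 (22% of all genes) and within them in 2 (15.4%). Control replicates 1 and 3 differed from each other by less than either did from control replicate 2 in each of the 8.

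Pairs of the genes could be compared within a library, where scaling between libraries cancels. Ssbp1 and Tfb1m kept a nearly constant ratio of 5.79, 5.83 and 6.06 in controls and 5.60, 5.82 and 6.35 with IGF1, although both levels varied between libraries. By contrast the ratio of Ssbp1 to Polrmt was 3.43 and 3.45 in control replicates 1 and 3, 9.64 in control replicate 2 and 9.75 to 10.8 with IGF1. Tfam to Polrmt was 1.44 and 1.52 in control replicates 1 and 3, 2.53 in control replicate 2 and 2.55 to 2.91 with IGF1. In both ratios the lowest IGF1 library was above the highest control by a small margin. The genes thus fell into those that were lower with the polymerases (Gabpa, Tfb2m, Polrmt, Polg, Nrf1), and Ssbp1 with Tfb1m, with Tfam in between. This grouping was made after the values were seen and has no test.

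**Figure D4:**
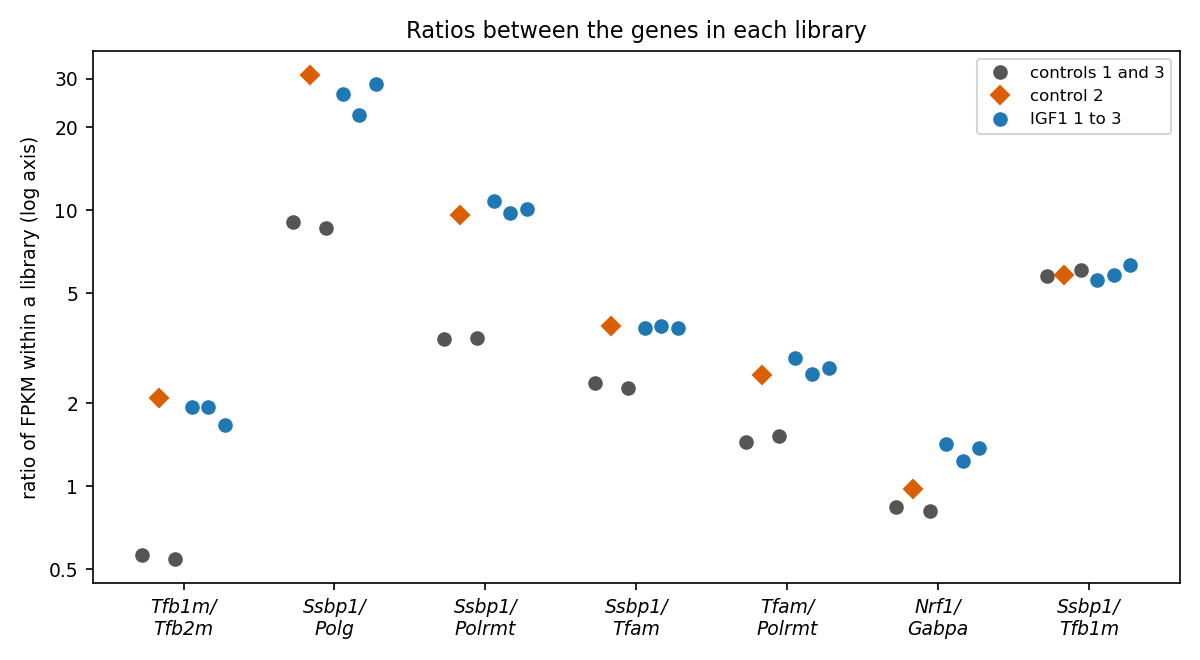
Ratio of FPKM between pairs of the genes within each library (log axis), with grey circles for control replicates 1 and 3, orange diamonds for control replicate 2 and blue circles for IGF1. Ssbp1/Tfb1m stays between 5.60 and 6.35, Tfb1m/Tfb2m is 0.561 and 0.544 in control replicates 1 and 3 and 1.66 to 2.09 elsewhere, and Nrf1/Gabpa is above 1 in the IGF1 libraries alone.

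The genes with the most similar pattern over the 6 libraries were taken by Pearson correlation of log2(FPKM + 1), as a description. For Tfam these were Trib3 (r = 0.9991), Man1a (0.9988) and Nuak2 (0.9986), and for Ssbp1 they were Atad2b (0.9985), Hp (0.9961) and Zcchc3 (0.9957). Because the 6 libraries form 2 clusters, such values are common. For Tfam, 2443 of 10446 other genes exceeded 0.95, and for Ssbp1, 462 did.

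The pathway around the 10 genes was read from 6 lists, 117 further genes in all, of which 110 were tested. Over the 6 libraries 22 of the 110 passed adjusted p 0.05 in limma, beside 20.4% of all genes tested, 18 of them lower and 4 higher with IGF1, beside 14.1% lower and 6.26% higher of all genes. At a fold change over 2, 9 were called lower and 2 higher, beside 6.61% of all genes in either direction. The median log2 difference of the 110 genes was -0.42, and that of all genes -0.18. Without control replicate 2, 100 passed, 76 lower and 24 higher, where 88.5% of all genes did. None of the 22 remained past adjusted p 0.05 when a library other than control replicate 2 was left out, since no gene did. Control replicate 2 was nearer to the IGF1 libraries in 79.1% of the 110 genes, beside 77.3% of all genes. It was nearer to the other controls in 9 of the 22 that passed, beside 50.3% of all genes that passed, a test that favours genes whose controls agree.

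Of 30 genes of mitochondrial transcription and RNA processing, the longest of the lists, 9 fell, 3 of them by over 2-fold, and none rose, beside 14.1% of all genes that fell. Their median log2 difference was -0.58, and -0.34 with the length and GC trends removed. Without control replicate 2, 25 were lower and 4 higher, beside 53.6% and 34.9% of all genes, with a median of -0.78. Tefm, the elongation factor of Polrmt, had 18.3, 15.8 and 16.7 FPKM in controls and 8.34, 8.36 and 8.29 with IGF1. Here all 3 controls were together and well above the IGF1 libraries, unlike Polrmt itself. Tefm fell by a log2 difference of -0.94 (SE 0.11, limma adjusted p = 0.0285), with -0.99 without control replicate 2 and -0.61 to -1.09 over the alternatives. Mterf3, a repressor of mtDNA transcription, had 10.6, 9.48 and 10.9 FPKM in controls and 6.21, 5.91 and 6.14 with IGF1 (-0.68, SE 0.11, limma adjusted p = 0.0307). The difference was -0.73 without control replicate 2, but -0.11 with the length and GC trends removed.

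Of 16 genes of mtDNA replication and repair, 2 fell and 2 rose, beside 14.1% and 6.26% of all genes. At a fold change over 2, 1 was called lower, beside 6.61% of all genes in either direction. The list median was -0.46. Without control replicate 2 it was -0.65, with 12 lower and 2 higher, beside 53.6% and 34.9% of all genes. Top1mt, the mitochondrial topoisomerase, had 15.3, 14.5 and 15.7 FPKM in controls and 8.91, 8.61 and 8.93 with IGF1, with control replicate 2 beside the other controls as in Tefm. It fell by a log2 difference of -0.72 (SE 0.10, limma adjusted p = 0.0287), with -0.75 without control replicate 2. Over the alternatives it stayed between -0.93 and -0.39, the last after quantile normalization, where the adjusted p was 0.0569. Endog, a mitochondrial nuclease, had 5.93, 8.31 and 6.49 FPKM in controls and 12.0, 12.8 and 12.4 with IGF1 (0.77, SE 0.15, limma adjusted p = 0.0363). The difference was 0.90 without control replicate 2, and its direction turned to -0.19 once length and GC trends were removed.

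Of 11 nucleoid proteins, proteases and prohibitins, 2 fell, both by over 2-fold, and none rose. Of all genes, 14.1% fell, 6.26% rose and 6.61% were called in either direction. The list median was -1.05, the lowest of the 6 lists, and -0.56 with the length and GC trends removed. Without control replicate 2 it was -1.33, with 8 lower and 2 higher, beside 53.6% and 34.9% of all genes. The 2 that fell are both mitochondrial chaperones. Hspe1, a further chaperone gene of this list, went the other way without passing (0.83, SE 0.34, limma adjusted p = 0.0905). It had 272, 590 and 262 FPKM in controls and 638, 635 and 590 with IGF1, with a difference of 1.21 without control replicate 2. Hspa9 had 240, 105 and 233 FPKM in controls and 73.6, 74.2 and 71.8 with IGF1 (-1.29, SE 0.33, limma adjusted p = 0.0471). Hspd1 had 287, 158 and 283 FPKM in controls and 109, 117 and 113 with IGF1 (-1.05, SE 0.25, limma adjusted p = 0.0439). In both, control replicate 2 lay between the groups and nearer to IGF1, as in Polrmt. Without it the differences were -1.68 for Hspa9 and -1.33 for Hspd1, and with the length and GC trends removed they were -0.72 and -0.62, under 2-fold. Both missed adjusted p 0.05 after quantile normalization (limma adjusted p = 0.0550 and 0.0544) and with no filter on low values (0.0573 and 0.0518).

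Among 15 genes that supply nucleotides, 3 fell and none rose, beside 14.1% and 6.26% of all genes. At a fold change over 2, 1 was called, beside 6.61% of all genes. The list median was -0.25. Without control replicate 2 it was -0.32, with 10 lower and 3 higher, beside 53.6% and 34.9% of all genes. Rrm2 is a subunit of ribonucleotide reductase, which makes deoxynucleotides in dividing cells. It had 113, 51.6 and 115 FPKM in controls and 35.1, 33.5 and 33.1 with IGF1 (-1.34, SE 0.32, limma adjusted p = 0.0435). The difference was -1.72 without control replicate 2 and -0.96, under 2-fold, with the length and GC trends removed. With no filter on low values the limma adjusted p was 0.0515. Slc25a36, a pyrimidine nucleotide carrier, had 9.83, 6.79 and 9.86 FPKM in controls and 5.31, 5.17 and 5.34 with IGF1 (-0.63, SE 0.16, limma adjusted p = 0.0481). The difference was -0.79 without control replicate 2 and -0.13 with the length and GC trends removed, and the adjusted p was 0.0507 with scaling to the 75th percentile, 0.0590 with no filter and 0.0516 with a pseudocount of 5. Control replicate 2 was between the groups in both.

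Upstream of the members, 19 of 24 transcription factors and coactivators could be tested. Of these, 2 rose and 1 fell, all by over 2-fold, beside 6.26% and 14.1% of all genes. Calls at a fold change over 2 made up 6.61% of all genes, and the list median was 0.01. Without control replicate 2, 8 were lower and 9 higher, beside 53.6% and 34.9% of all genes, with a median of -0.11. Scaling to the 75th percentile put the median at 0.22. Ppard, a nuclear receptor that PGC-1 coactivators bind, was low, with 0.155, 0.727 and 0.289 FPKM in controls and 2.71, 1.78 and 2.51 with IGF1. The groups did not overlap, and Ppard rose by a log2 difference of 1.27 (SE 0.19, limma adjusted p = 0.0287), with 1.44 without control replicate 2. It was 0.44 with a pseudocount of 5 and 2.87 on recovered reads. Atf2, a factor that binds CRE sites, had 12.5, 6.21 and 11.5 FPKM in controls and 3.45, 3.62 and 3.86 with IGF1 (-1.20, SE 0.26, limma adjusted p = 0.0394). The difference was -1.49 without control replicate 2 and -0.56, under 2-fold, with the length and GC trends removed. Of 19 kinases, deacetylases and other modifiers of PGC-1 tested, 1 fell and none rose, beside 14.1% and 6.26% of all genes. The list median was -0.24, and -0.03 with scaling to the 75th percentile. Without control replicate 2 it was -0.32, with 13 lower and 4 higher, beside 53.6% and 34.9% of all genes. The gene that fell was Nampt, the enzyme of NAD salvage. It had 28.2, 18.7 and 29.7 FPKM in controls and 11.7, 12.5 and 11.3 with IGF1 (-1.02, SE 0.19, limma adjusted p = 0.0363). The difference was -1.22 without control replicate 2, and under 2-fold at -0.43 with the length and GC trends removed, -0.78 with scaling to the 75th percentile and -0.71 after quantile normalization.

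**Figure D5:**
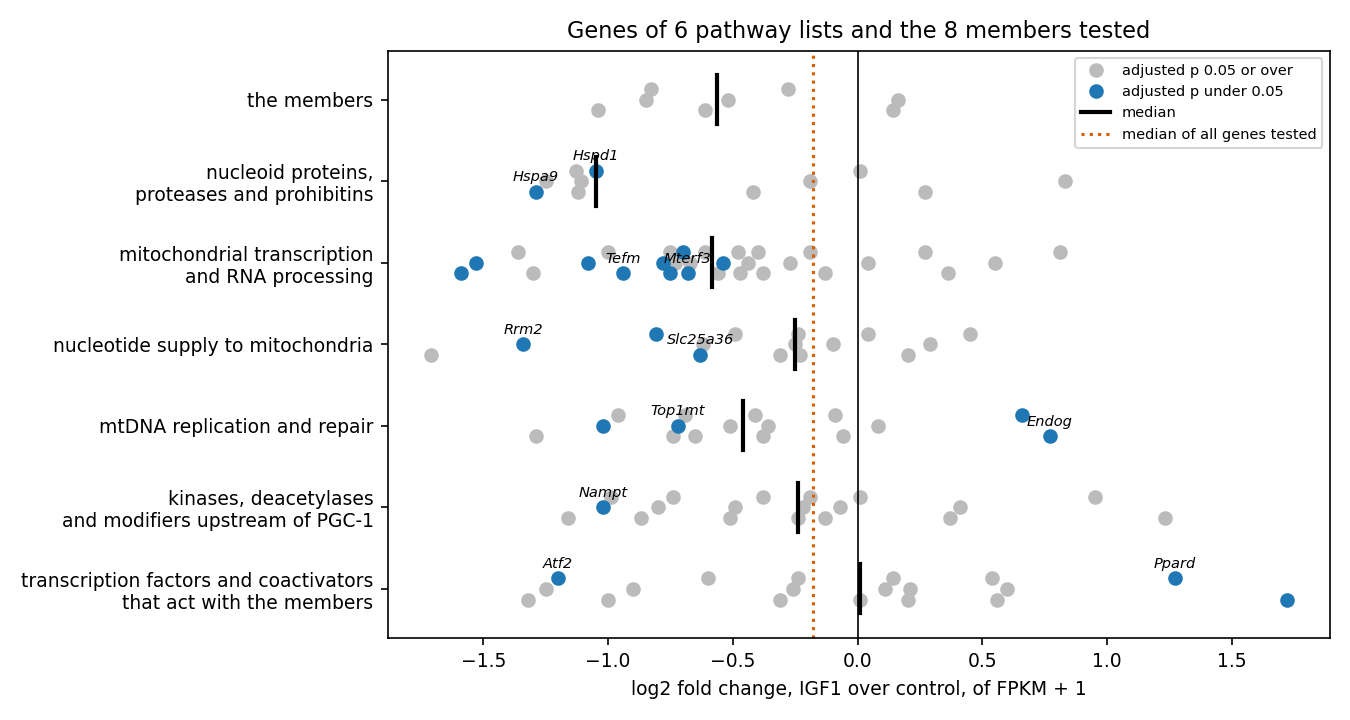
Log2 fold change of FPKM + 1 (IGF1 over control, all 6 libraries) of the 110 tested genes of 6 pathway lists and of the 8 tested genes themselves, 1 point per gene, blue where adjusted p is under 0.05, with each list's median in black and the median of all genes tested, -0.18, as a dotted line. The list medians run from -1.05 for nucleoid proteins, proteases and prohibitins to 0.01 for transcription factors and coactivators.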

How the data were processed

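HSC RNA (RNeasy Micro, TruSeq Stranded mRNA, NovaSeq) was sequenced by the authors. The deposited values are FPKM per gene symbol, 21878 rows in each library. The submitters' processing notes name fastp, HISAT2, StringTie and GRCm38 (mm10), while the study's methods name RSEM and DESeq2. Whole reads were recovered from the steps of the FPKM values (15640 of 15640 genes above 0 came out whole within 0.005 reads, against 0.0% of 1000 jittered rows) and gave the depth. Rows sharing a name (4) were left out, 27 rows carry date-like names, and 0 are mitochondrially encoded.

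The 10447 genes that reached 1 FPKM in 3 or more libraries were tested with limma 3.58.1 (R 4.3.3, lmFit, eBayes with trend). The test was on log2(FPKM + 1), which understates fold changes of low genes, and followed a check on simulated data. Those data had the spread of the IGF1 libraries and no deviating control, so the check does not cover control replicate 2. Promoter sequences and gene coordinates are RefSeq's, and transcript lengths and GC content are GENCODE's, for GRCm38. The members, lists and tests were chosen with earlier results of these data known. Named genes were the 10 members, up to 2 genes per list with the smallest adjusted p past 0.05, and the 3 genes most correlated with Tfam and with Ssbp1. Hspe1 and Pprc1 were named after the values had been seen. Alternatives changed the scaling, filter, pseudocount, variance model, block, weights, libraries, length and GC trends and the unit (voom on recovered reads).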

Additional observations from a re-analysis of the deposited data

How the results depend on the processing

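With all 6 libraries and the settings above, 207 genes were called higher and 484 lower with IGF1, and 0 members passed adjusted p 0.05. Calls were 300 and 261 with scaling to the 75th percentile, 304 and 319 after quantile normalization, 109 and 265 without a filter on low values, 66 and 157 with a pseudocount of 5, 160 and 154 with length and GC trends removed (1 member past, Polrmt), 382 and 680 with voom, 654 and 1476 with no fold threshold, and 1276 and 2159 with library weights (8 members past, 3 called). Leaving out each library in turn gave 0 to 1281 higher, 0 to 2157 lower, 0 to 8 members past and 0 to 3 called, and only the fit without control replicate 2 gave values above 0. Libraries with the same replicate number did not deviate together (correlations -0.0573, -0.0504 and 0.00567), and with the replicate block 0 genes were called higher and 0 lower in limma, while 4791 had an unadjusted p under 0.05. Chosen after seeing the data, voom without a filter called 720 and 890. Without control replicate 2, the 75th percentile scaling called 1878 and 1229 (7 members past, all but Tfam, 1 called, Gabpa), and removal of length and GC trends 1184 and 958 (7 past, all but Nrf1, 4 called, Polg, Polrmt, Ssbp1 and Tfb1m). Direction turned for Tfam (0.03 after quantile normalization, 0.26 with length and GC trends removed and 0.37 with control replicate 2 also left out) and for Nrf1 (0.02 with length and GC trends removed). The other 6 members kept their direction in all of these. The causes were not tested. Ppargc1a had 3 to 30 reads per library, and the part of that depth in its result was not tested.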
